A study of Mus musculus with 12 samples.

Results

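ATF4 is a transcription factor of the integrated stress response, and the 10 genes described here are Atf4 itself and 9 genes known as its targets or partners in amino acid and stress metabolism. They were chosen by gene symbol (Atf4, Ddit3, Trib3, Sesn2, Ddit4, Asns, Psat1, Phgdh, Slc7a11 and Chac1), and all 10 were found among the 18211 genes of the table. All 10 also passed the filter on low counts. The measured samples were MC38 tumors, grown under the skin of female C57BL/6 mice that were bought at 5 weeks of age. MC38 is a mouse colorectal adenocarcinoma line, so tumor and host transcripts cannot be separated by species. Treatment began once tumors had formed, 7 days after the cells were injected, and 3 tumors of each of the 4 groups were sequenced. The CK group received vehicle. The PB-020 group received PB-020, an inhibitor of the growth factor receptor kinase IGF-1R, by mouth at 50 mg/kg per day. The anti-PD-1 group received an antibody that blocks the T cell checkpoint receptor PD-1, given on days 9, 12, 15 and 18 at a dose of 200 μg for each mouse. The last group received the PB-020/anti-PD-1 combination.

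In the integrated stress response, kinases that sense amino acid shortage, misfolded protein, viral RNA or heme deficiency phosphorylate the initiation factor eIF2. General translation then falls, while upstream reading frames in the Atf4 mRNA let more ATF4 protein be made. ATF4 pairs with other leucine zipper proteins and switches on genes for amino acid synthesis, amino acid import, the charging of tRNA and, under lasting stress, cell death. Much of this control acts on ATF4 protein, which RNA sequencing does not measure. The pathway also meets insulin and IGF signaling at mTORC1, a kinase complex that raises ATF4 output and is restrained by the products of Sesn2 and Ddit4.

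ATF4 and its partners are known to bind the C/EBP-ATF element, here searched as TGATGNAA on both strands of the RefSeq promoter windows of GRCm38.p6, from 250 bases before to 50 after each transcription start. The windows of 4 of the 10 genes held it (Asns, Trib3, Slc7a11 and Chac1), and 4.51% of all 27025 genes with a window did. The matches are shown 5′ to 3′ on the strand of the gene, with the matched letters in capitals, because they are the DNA feature most directly tied to this factor.
Asns: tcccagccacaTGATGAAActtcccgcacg
Slc7a11: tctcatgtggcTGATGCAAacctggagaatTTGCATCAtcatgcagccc
Chac1: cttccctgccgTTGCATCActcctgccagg
Trib3: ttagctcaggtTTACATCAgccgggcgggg
The Asns stretch lies at chr6:7693214-7693243 on the minus strand, and its match spans positions -23 to -16 from the start. The Slc7a11 stretch lies at chr3:50443642-50443690 on the minus strand and holds a match on each DNA strand, at -66 to -59 and at -47 to -40. The Chac1 stretch lies at chr2:119351038-119351067 on the plus strand, with its match at -193 to -186, read on the opposite strand. The Trib3 stretch lies at chr2:152344028-152344057 on the minus strand, and its match falls after the start, at 15 to 22, also on the opposite strand. No match stood in the windows of Atf4, Ddit3, Sesn2, Ddit4, Psat1 or Phgdh, which says only that these letters are not in those windows. A match is a description of the DNA and was not tested for binding.

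Library totals of expected counts lay between 16545394 and 17217035, and the 10 genes had between 236 (Sesn2) and 9949 (Atf4) counts in a tumor. The samples of a group are described as triplicate tumor tissues, and p-values measure only the spread between them. Some libraries stood apart. The 8 skeletal muscle markers summed to 522 FPKM in anti-PD-1 tumor 1 and to 9.58 to 57.3 FPKM in the other 11 tumors. The 6 neutrophil markers summed to 416 FPKM in CK tumor 3 against 8.30 to 38.6 FPKM elsewhere, and the 6 adipocyte markers to 282 FPKM against 29.2 to 64.2 FPKM. Results were therefore also computed without both tumors. Although MC38 is a colorectal line, defining epithelial markers were near 0, with Cdx2 at no more than 0.06 FPKM, Krt8 at no more than 0.14 FPKM and Epcam at no more than 0.54 FPKM, and of the 10 markers listed only Cdh1 was tested. In such bulk samples, fewer cells of a type and less RNA per cell cannot be told apart.

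**Figure D1:**
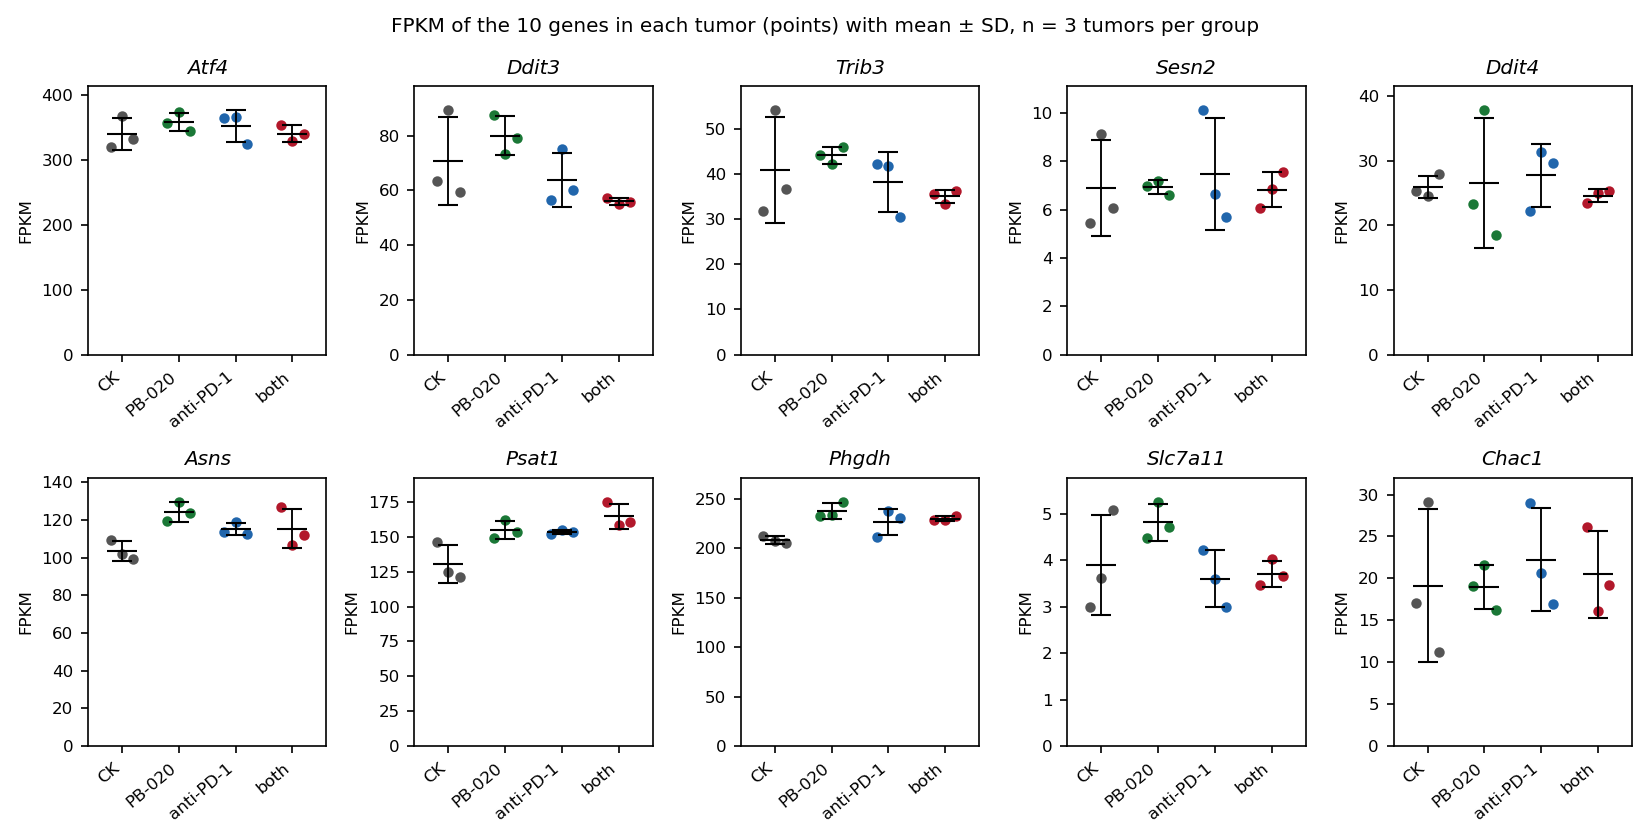
FPKM of each of the 10 genes in the 12 tumors, 1 panel per gene with an axis from 0; points are tumors, horizontal bars the group mean and whiskers the SD (n = 3 tumors per group; "both" is the PB-020/anti-PD-1 combination). In Asns, Psat1 and Phgdh the 3 PB-020 tumors lie above the 3 CK tumors, and in Ddit3 the 3 combination tumors lie below all the other tumors except anti-PD-1 tumor 1, which lies between them.

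Levels per transcript length (FPKM, the authors' fragment counts scaled by gene length and library size) set the genes in an order by their medians. Atf4 was the most abundant, with a median of 348.9 FPKM over the 12 tumors, higher than 98.9% of all genes in the table. Phgdh followed at 229 FPKM, Psat1 at 153 FPKM and Asns at 113 FPKM. Ddit3 stood at 61.7 FPKM, Trib3 at 39.1 FPKM, Ddit4 at 25.2 FPKM and Chac1 at 19.1 FPKM. Sesn2 (6.74 FPKM) and Slc7a11 (3.84 FPKM) were the lowest. Neighbours in this order whose ranges over the tumors overlapped were Psat1 and Asns, Trib3 and Ddit4, and Ddit4 and Chac1, and the ranges of the other neighbours did not overlap. Chac1 varied most, by 2.6-fold between its lowest and highest tumor, and Atf4 least, by 1.17-fold.

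Atf4 mRNA was nearly level across the groups. It was 319, 366 and 331 FPKM in the CK tumors, 356, 373 and 345 FPKM in the PB-020 tumors, 365, 366 and 323 FPKM in the anti-PD-1 tumors, and 353, 328 and 339 FPKM in the combination tumors. The 4 groups overlapped. Against CK, the log2 changes were 0.10 ± 0.08 (SE) for PB-020, 0.07 ± 0.08 for anti-PD-1 and 0.02 ± 0.08 for the combination, with 95% confidence intervals that together ran from -0.14 to 0.26. The adjusted p of the edgeR quasi-likelihood test was 0.896, 0.563 and 0.848.

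Ddit3 encodes CHOP, a leucine zipper partner of ATF4 that is known for driving cell death under lasting endoplasmic reticulum stress. Its 3 CK tumors had 63.5, 89.2 and 59.5 FPKM, the PB-020 tumors 87.5, 73.2 and 79.0 FPKM, the anti-PD-1 tumors 56.35, 75.0 and 60.0 FPKM, and the combination tumors 57.3, 54.8 and 55.6 FPKM. The combination tumors were the tightest (55.9 ± 1.27 FPKM, S.D., n = 3) and all lay below every CK and every PB-020 tumor. Against PB-020 the log2 change was -0.53 ± 0.15 (SE), with an unadjusted p of 0.00349 and an adjusted p of 0.0684 in the edgeR test, just outside the threshold of 0.05. Against CK it was -0.35 ± 0.15 with an adjusted p of 0.122. Without CK tumor 2, the highest of the 12, that log2 change was -0.13. With anti-PD-1 alone against CK the groups overlapped, and the log2 change was -0.09 ± 0.15 (adjusted p = 0.731, edgeR). Over both anti-PD-1 groups against both groups without the antibody (the anti-PD-1 main effect), Ddit3 fell by 0.31 on the log2 scale (SE 0.10, adjusted p = 0.0468). That call was kept in 2 of 12 fits that left out 1 tumor, those without CK tumor 3 or anti-PD-1 tumor 2, and the adjusted p over the 12 fits ranged from 0.0193 to 0.114. In the RefSeq annotation, Ddit3 (chr10:127290793-127296291) overlaps Mars1, the methionyl-tRNA synthetase gene, by 71 bases and Mbd6 by 77 bases. Whether the counting used strand was not given in the sources used here, so reads in these overlaps cannot be assigned.

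Trib3 encodes a pseudokinase that ATF4 and CHOP induce and that feeds back on both and on AKT. It had 31.7, 54.0 and 36.6 FPKM in CK, 44.1, 42.3 and 46.0 FPKM in PB-020, 42.2, 41.7 and 30.5 FPKM in anti-PD-1, and 35.5, 33.4 and 36.2 FPKM in the combination. As for Ddit3, CK tumor 2 was the highest, and the 3 combination tumors lay below the 3 PB-020 tumors. That difference was -0.34 ± 0.18 on the log2 scale (adjusted p = 0.283, edgeR), and the 3 comparisons with CK gave log2 changes from -0.20 to 0.14, none past the test.

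Sesn2 and Ddit4 (also called REDD1) both hold back mTORC1, Sesn2 as a leucine sensor and Ddit4 through the TSC complex. Sesn2 ranged from 5.46 FPKM in CK tumor 1 to 10.1 FPKM in anti-PD-1 tumor 1, the tumor with the high muscle markers. Ddit4 ranged from 18.6 FPKM in PB-020 tumor 3 to 37.8 FPKM in PB-020 tumor 2, so that a single group held both its extremes. For both genes the groups overlapped in every comparison, and the 95% confidence intervals of the log2 changes against CK ran from -0.56 to 0.62.

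Asns, Psat1 and Phgdh are the enzymes of amino acid synthesis among the 10 genes. Asns makes asparagine from aspartate and glutamine, Phgdh catalyses the first step from glycolysis into serine, and Psat1 the step that follows. All 3 were higher in each PB-020 tumor than in any CK tumor. Asns stood at 109, 102 and 99.0 FPKM in CK and at 119, 129 and 124 FPKM in PB-020. Psat1 stood at 146, 125 and 121 FPKM in CK and at 149, 162 and 153 FPKM in PB-020. Phgdh stood at 212, 207 and 205 FPKM in CK and at 232, 233 and 247 FPKM in PB-020. The groups did not overlap, although the nearest Psat1 tumors of both groups differed by only a few FPKM. The log2 changes were 0.28 ± 0.07 (SE) for Asns, 0.27 ± 0.08 for Psat1 and 0.21 ± 0.07 for Phgdh, with unadjusted p of 0.00169, 0.00496 and 0.0065 in the edgeR test. Asns ranked 13th of the 13563 genes by p in this comparison. After adjustment over those 13563 genes, all 3 had an adjusted p of 0.874 and did not pass. Without CK tumor 3, which was the lowest of the 12 in all 3 genes, the log2 changes were 0.24, 0.20 and 0.19.

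In the anti-PD-1 tumors Asns stood at 114, 119 and 113 FPKM, and in the combination tumors at 127, 107 and 112 FPKM, so combination tumors overlapped CK. Phgdh stood at 211, 237 and 230.3 FPKM with anti-PD-1 and at 228, 228 and 232 FPKM with the combination. Psat1 stood at 152, 155 and 154 FPKM with anti-PD-1 and at 175, 158 and 161 FPKM with the combination. Each Psat1 value of both groups was thus above the highest CK tumor. Psat1 rose in the combination against CK by 0.35 ± 0.08 on the log2 scale (1.28-fold, 95% confidence interval 0.18 to 0.52, adjusted p = 0.0108, edgeR), from 130.5 ± 13.5 to 164.6 ± 9.11 FPKM (mean ± S.D., n = 3). It was the 1 gene of the 10 that passed there, where 17.9% of all genes tested passed. The call was lost without CK tumor 2 (adjusted p = 0.0574) or without combination tumor 1 (adjusted p = 0.0514), kept in the other 10 fits that left out 1 tumor, and kept without CK tumor 3 and anti-PD-1 tumor 1 together (log2 change 0.30, adjusted p = 0.0223). In the anti-PD-1 main effect Psat1 rose by 0.17 ± 0.06 (adjusted p = 0.0429). That call was kept in 3 of 12 fits that left out 1 tumor, those without CK tumor 1, PB-020 tumor 2 or anti-PD-1 tumor 1, and the adjusted p over the 12 fits ranged from 0.0114 to 0.11.

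Slc7a11 is the cystine/glutamate exchanger xCT, which supplies cysteine for glutathione, and Chac1 is an enzyme that breaks glutathione down. Slc7a11 had 3.0, 3.61 and 5.09 FPKM in CK, 4.49, 5.26 and 4.72 FPKM in PB-020, 4.22, 3.6 and 3.0 FPKM in anti-PD-1, and 3.46, 4.02 and 3.66 FPKM in the combination. The combination tumors lay below the PB-020 tumors, with a log2 change of -0.38 ± 0.17 (SE, adjusted p = 0.198, edgeR). Chac1 had 17.04, 29.1 and 11.2 FPKM in CK, 19.1, 21.6 and 16.3 FPKM in PB-020, 28.99, 20.7 and 16.99 FPKM in anti-PD-1, and 26.2, 16.1 and 19.2 FPKM in the combination. CK tumors held both the highest and the lowest Chac1 value, and no comparison separated the groups. With standard errors near 0.34, the Chac1 intervals were the widest of the 10 genes.

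**Figure D2:**
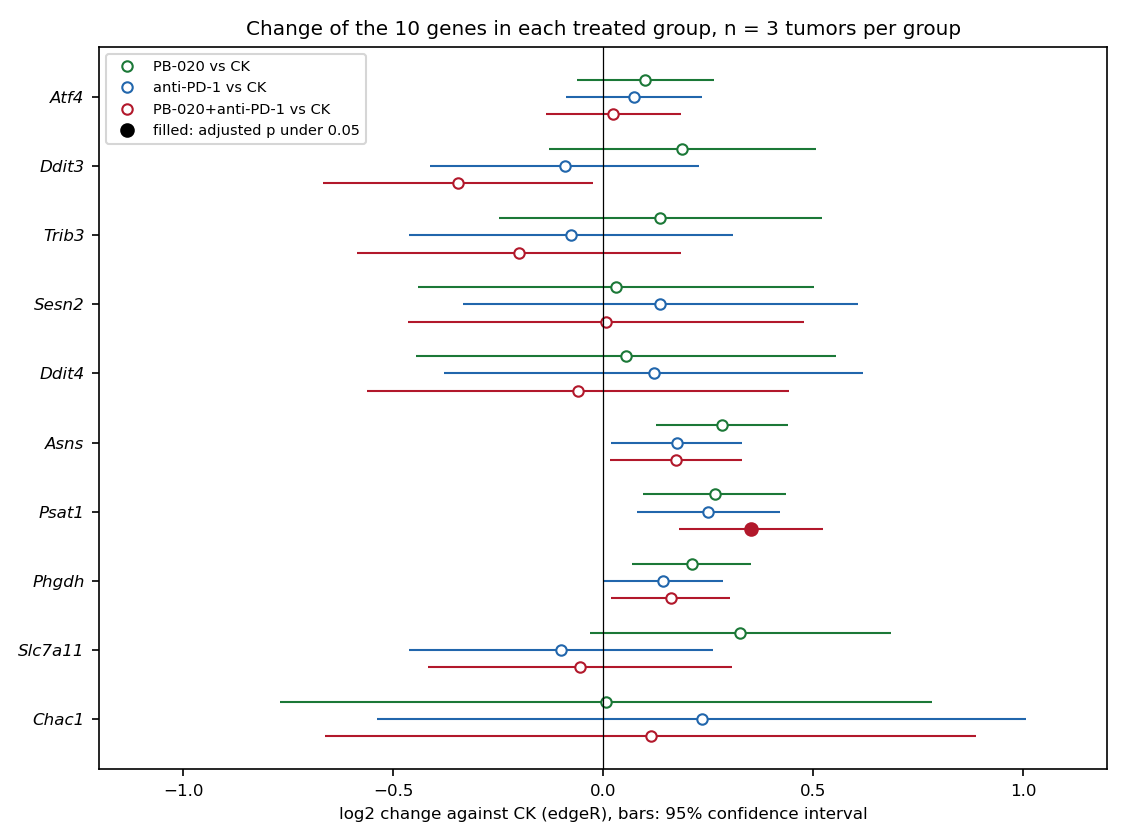
Log2 change of each of the 10 genes against CK in PB-020, anti-PD-1 and the PB-020/anti-PD-1 combination (horizontal axis, edgeR estimate), with bars for the 95% confidence interval (n = 3 tumors per group) and filled points for an adjusted p under 0.05. The single filled point is Psat1 in the combination, at 0.35; all 10 green points, for PB-020, lie above 0, with intervals that cover 0 for 7 of them.

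Few of the 10 genes passed the edgeR test. Against CK, PB-020 alone gave 0 of the 10 at an adjusted p under 0.05 (0% of all genes tested) and 3 of the 10 at an unadjusted p under 0.05 (5.46% of all genes tested), and DESeq2 and limma also gave 0 of the 10. All 10 point estimates were above 0, with a median log2 change of 0.16, beside 6608 of 13563 genes above 0 and a median of -0.004 over all genes tested. That sign did not hold for every gene in the 12 fits that left out 1 tumor. Without CK tumor 1, Trib3, Sesn2 and Chac1 lay below 0 and the median was 0.089, and without CK tumor 3, Sesn2 and Chac1 did and the median was 0.085. Chac1 also lay below 0 without PB-020 tumor 1 or 2, and Ddit4 without PB-020 tumor 2. The 3 genes whose PB-020 tumors all lay above CK stood beside 7.78% of all genes above and 6.47% below. Counts of tumors above or below, here and in the comparisons that follow, were read on TMM-scaled log2 CPM.

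Anti-PD-1 alone gave 0 of the 10 against CK, where 8.26% of all genes passed. At an unadjusted p under 0.05 it gave 3 of the 10, beside 26.6% of all genes, while DESeq2 gave 1 (Psat1) and limma gave 0. Asns and Psat1 lay above CK in all 3 tumors, beside 13.9% of all genes above and 15.2% below. In the combination against CK, Psat1 and Phgdh lay above and Ddit3 below, beside 19.6% and 21.2% of all genes. Read against these shares, the 10 genes did not pass more often than genes in general with anti-PD-1 or with the combination.

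The combination differed from anti-PD-1 alone in 0 of the 10 genes, also with DESeq2 and limma (0% of all genes passed), and in 0 of the 10 at an unadjusted p under 0.05 (7.26% of all genes). On log2 CPM Psat1 lay above and Ddit3 below in all 3 tumors, beside 4.33% and 5.71% of all genes. In FPKM Psat1 also lay above, but Ddit3 overlapped, with anti-PD-1 tumor 1 among the combination tumors. Against PB-020 alone the combination gave 0 of the 10, where 3.35% of all genes passed. At an unadjusted p under 0.05 it gave 2 of the 10 (Ddit3 and Slc7a11), beside 22.4% of all genes, while DESeq2 gave 1 (Ddit3) and limma gave 0. On log2 CPM the combination tumors lay below the PB-020 tumors in 4 genes (Ddit3, Trib3, Phgdh and Slc7a11) and above them in 0, beside 16.5% of all genes below and 14.6% above. In FPKM this held for 3 genes, since Phgdh overlapped. When only these 6 tumors were fitted, 1535 genes passed over all genes tested, in place of 455 in the main fit. Among them were Ddit3, Trib3 and Slc7a11, with adjusted p of 0.000548, 0.00758 and 0.0123. Over all alternatives the adjusted p of these 3 genes ran up to 0.24, 0.492 and 0.403.

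The anti-PD-1 main effect gave the 2 calls described above, Psat1 raised and Ddit3 lowered, where 24.2% of all genes passed. The PB-020 main effect gave 0 of the 10 (0% of all genes), 3 at an unadjusted p under 0.05 (Psat1, Asns and Phgdh, beside 10.9% of all genes), 1 with DESeq2 (Psat1) and 0 with limma. The interaction, which asks whether the combination differed from the sum of its 2 single effects on the log2 scale, also gave 0 of the 10 (0% of all genes) with edgeR, DESeq2 and limma, and 1 at an unadjusted p under 0.05, beside 2.29% of all genes. This was Asns, at -0.28 ± 0.10 with an unadjusted p of 0.0155 and an adjusted p of 1. All 10 interaction estimates were below 0, with a median of -0.21, beside 7105 of 13563 genes below 0 and a median of -0.009 over all genes tested. With 1 tumor left out, Chac1 lay above 0 without CK tumor 3, anti-PD-1 tumor 1 or combination tumor 2, Sesn2 without anti-PD-1 tumor 1, and Ddit4 without PB-020 tumor 2. The interaction and the comparisons with CK share the same CK tumors, so their estimates are not independent of each other.

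The wider pathway was read from a list of 122 genes in 10 roles, of which 116 were tested. None of the 10 genes above is in it. With PB-020 alone 0 of 116 passed, 29 of 116 had an unadjusted p under 0.05 (5.46% of all genes did), DESeq2 gave 2 and limma gave 0. The median log2 change was 0.06, and 76 of the 116 lay above 0, beside -0.004 and 6608 of 13563 over all genes tested. This lean was not particular to PB-020. Against CK, 75 of the 116 lay above 0 with anti-PD-1 (median 0.06) and 66 with the combination (median 0.053). Over all genes tested, 6793 and 6731 of 13563 did. All of these comparisons share the same CK tumors.

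**Figure D3:**
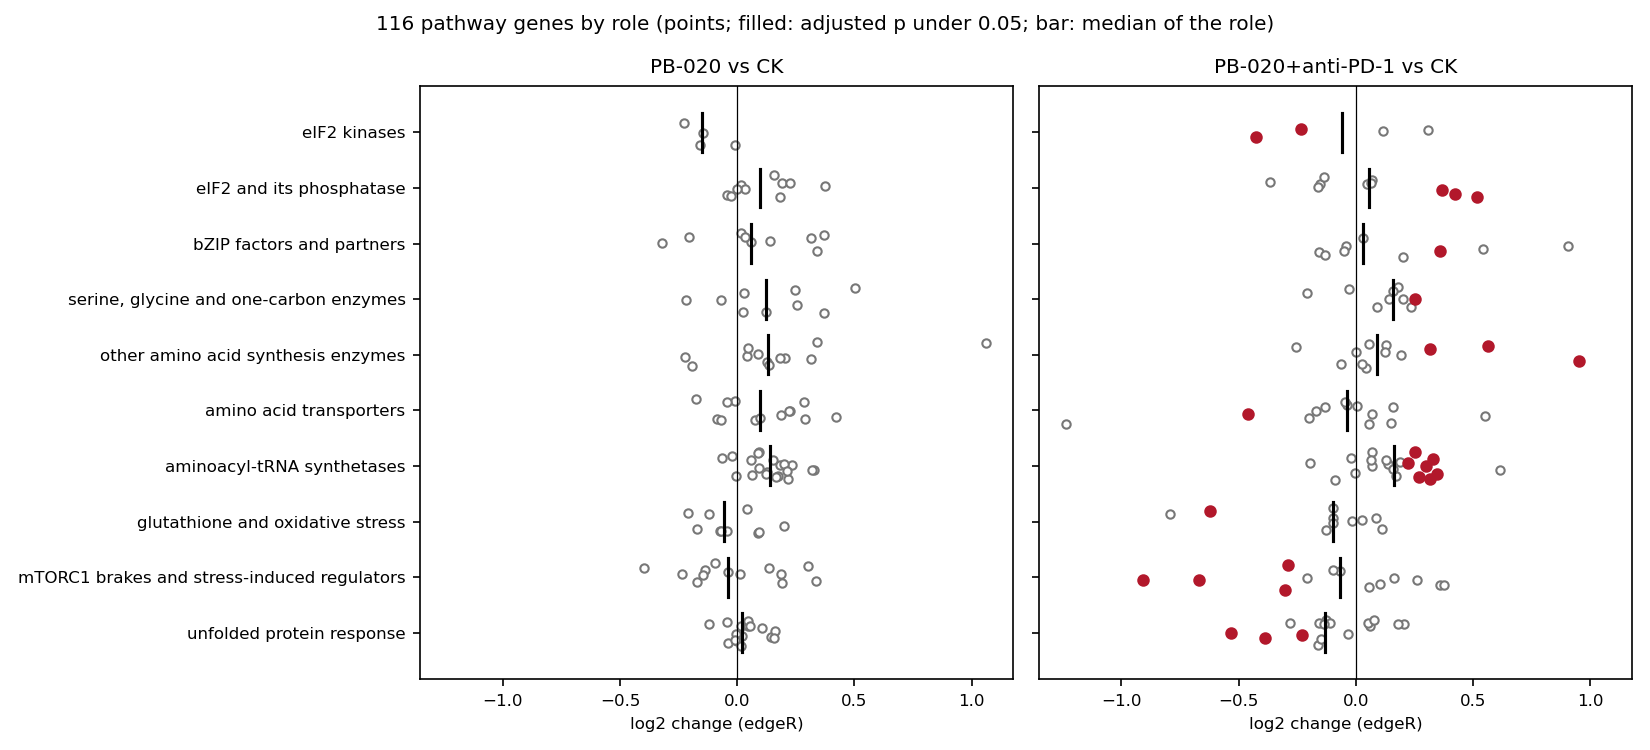
Log2 changes (edgeR) of the 116 tested pathway genes by role for PB-020 against CK (left) and the PB-020/anti-PD-1 combination against CK (right); each point is a gene, filled points have an adjusted p under 0.05 and the vertical bar is the median of the role (n = 3 tumors per group). The left panel has no filled point and its farthest point is Cth at 1.06; on the right, 7 aminoacyl-tRNA synthetases are filled above 0 and the filled unfolded protein response genes lie below 0.

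The 2 genes that DESeq2 called with PB-020 alone were Cth and Aldh1l2, named here after their values were seen. Cth encodes cystathionine gamma-lyase, which makes cysteine, and had 5.51, 4.63 and 5.46 FPKM in CK and 11.3, 12.1 and 8.67 FPKM in PB-020. The PB-020 tumors were all well above CK, with a log2 change of 1.06 ± 0.18 (SE). Its adjusted p was 0.395 with edgeR and 0.000948 with DESeq2. Aldh1l2, a mitochondrial enzyme of folate metabolism, had 13.6, 15.7 and 14.1 FPKM in CK and 21.1, 19.8 and 20.02 FPKM in PB-020, again without overlap. Its log2 change was 0.50 ± 0.09, with an adjusted p of 0.395 with edgeR and 0.00172 with DESeq2. When anti-PD-1 tumor 1, which is in neither group, was left out of the edgeR fit, both passed (adjusted p of 0.0126 and 0.0261). Over all alternatives the adjusted p ran from 0.000948 to 1 for Cth and from 0.00172 to 1 for Aldh1l2. In FPKM both genes also lay above every CK tumor in the other treated groups. Cth had 10.88, 7.17 and 6.92 FPKM with anti-PD-1 and 10.90, 9.78 and 9.02 FPKM with the combination. Aldh1l2 had 20.40, 16.90 and 16.04 FPKM with anti-PD-1 and 18.07, 15.74 and 16.82 FPKM with the combination. The lowest of these was close to the highest CK tumor (15.72 FPKM).

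The aminoacyl-tRNA synthetases are the enzymes that charge tRNA with amino acids. With PB-020, the estimated log2 change against CK was above 0 for 17 of 20, beside 6608 of 13563 of all genes tested, with a median of 0.14. It was also above 0 for 19 of 20 with anti-PD-1 (median 0.089) and for 16 of 20 with the combination (median 0.164). These counts are of signs and not of tumors without overlap. With PB-020 an unadjusted p under 0.05 was reached by 9 of the 20, beside 5.46% of all genes, and none passed the adjusted test. In the combination 7 of 20 rose against CK (Cars, Dars, Farsb, Lars, Mars, Rars and Vars) and 0 fell, beside 8.35% of all genes tested that rose and 9.6% that fell. Vars rose by 0.34 ± 0.08 (adjusted p = 0.00914) and Dars by 0.30 ± 0.08 (adjusted p = 0.024). With anti-PD-1 alone 3 of 20 rose (Cars, Mars and Vars), beside 4.18% of all genes, with Vars at 0.41 ± 0.08 (adjusted p = 0.00962).

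Over the whole list, 15 of 116 genes rose and 11 fell in the combination against CK, beside 17.9% of all genes tested in either direction, 8.35% raised and 9.6% lowered. Bcat1, which starts the breakdown of branched-chain amino acids, rose by 0.57 ± 0.09 on the log2 scale (adjusted p = 0.00317), and Cth by 0.95 ± 0.18 (adjusted p = 0.00463). Shmt2, the mitochondrial enzyme that turns serine into glycine, rose by 0.25 ± 0.08 (adjusted p = 0.0491). The 3 subunits of eIF2 rose, among them Eif2s1 by 0.37 ± 0.08 (adjusted p = 0.00862) and Eif2s3x by 0.42 ± 0.10 (adjusted p = 0.0117). Cebpg, which encodes a leucine zipper partner of ATF4, rose by 0.36 ± 0.07 (adjusted p = 0.00512). The 15 raised genes were the 7 synthetases, the 3 eIF2 subunits, Cebpg, Shmt2, Gpt2, Cth and Bcat1. Without CK tumor 2, 13 of the 116 genes passed in place of 26, and without combination tumors 1 or 2, 14 and 15.

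The genes that fell in the combination stood in other roles. The counts by role below stand beside 9.6% of all genes tested that fell there and 8.35% that rose. Of the 4 eIF2 kinases, Eif2ak3 (PERK, the kinase of the endoplasmic reticulum) fell by 0.43 on the log2 scale (SE 0.08, adjusted p = 0.00499) and Eif2ak1 (HRI, which senses heme) fell by 0.23 (SE 0.07, adjusted p = 0.0356). In the unfolded protein response 3 of 16 genes fell and 0 rose: Xbp1 fell by 0.39 (adjusted p = 0.00696), Herpud1 fell by 0.53 (adjusted p = 0.0094), and Atf6 also passed. Among the mTORC1 brakes and stress-induced regulators, 4 of 13 fell. Sesn1, a relative of Sesn2 that p53 and FOXO factors induce, fell by 0.91 (SE 0.13, adjusted p = 0.00182). Its levels were 12.6, 15.7 and 16.5 FPKM in CK and 6.88, 8.37 and 7.91 FPKM in the combination, without overlap, whereas Sesn2 had a log2 change of 0.01 ± 0.22. Trib2, a relative of Trib3, fell by 0.67 (adjusted p = 0.00666). Tsc1 and Tsc2 also passed with smaller falls, from means of 7.02 and 19.6 FPKM in CK to 5.67 and 15.7 FPKM in the combination. Nqo1, an NRF2 target of the oxidative stress role, fell by 0.62 (adjusted p = 0.00855), and the transporter Slc36a4 fell by 0.46 (adjusted p = 0.00433).

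With anti-PD-1 alone 7 of 116 rose and 5 fell against CK, beside 4.18% of all genes raised and 4.08% lowered. Of the 116, 3, 5 or 6 passed in all without CK tumor 2, anti-PD-1 tumor 3 or anti-PD-1 tumor 1. The leading genes were Bcat1 (0.60 ± 0.09, adjusted p = 0.0067) and Vars among those raised, and Sesn1 (-0.84 ± 0.13, adjusted p = 0.0067) and Nqo1 (-0.64 ± 0.13, adjusted p = 0.0153) among those lowered. Against PB-020 the combination gave 0 raised and 6 lowered of 116 (Nupr1, Slc36a4, Xbp1, Slc6a9, Sesn1 and Ppp1r15a), beside 1.25% of all genes raised and 2.11% lowered. Nupr1, a stress-induced chromatin protein, had 538, 526 and 585 FPKM in PB-020 and 396, 374 and 373 FPKM in the combination, and fell by 0.53 (SE 0.11, adjusted p = 0.0295), while Slc36a4 fell by 0.39 (adjusted p = 0.0308). None of these 6 calls was kept without PB-020 tumor 1 or 3 or any 1 combination tumor, 3 passed without anti-PD-1 tumor 3, and 14 passed without anti-PD-1 tumor 1. Over the anti-PD-1 main effect 11 of 116 rose and 14 fell, beside 11.8% of all genes raised and 12.3% lowered, so that the share passing was not above that of genes in general. The leading genes were Bcat1 (0.42 ± 0.07, adjusted p = 0.00124) and Vars among those raised, and Sesn1 (-0.67 ± 0.09, adjusted p = 0.000617) and Slc36a4 among those lowered. The combination against anti-PD-1 gave 0 of 116 with edgeR, DESeq2 and limma, and 9 at an unadjusted p under 0.05 (7.26% of all genes). The PB-020 main effect gave 0 of 116, 20 at an unadjusted p under 0.05 (10.9% of all genes), 3 with DESeq2 and 0 with limma. The interaction gave 0 of 116 with all 3 tools, and 14 at an unadjusted p under 0.05 (2.29% of all genes).

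Markers of some other cell types moved with the same groups. In the combination against CK, 8.35% of all genes tested rose and 9.6% fell. The macrophage (9 tested), endothelial (6), neutrophil (6), skeletal muscle (8) and adipocyte (3) markers gave 0 calls there. The 10 T cell markers summed to 13.7 to 18.9 FPKM in CK, 20.1 to 25.2 FPKM in PB-020, 30.4 to 76.3 FPKM in anti-PD-1 and 36.6 to 59.8 FPKM in the combination, and 9 of 10 rose in the combination against CK. With anti-PD-1 alone 8 of 10 rose against CK, beside 4.18% of all genes tested that rose there and 4.08% that fell. The 5 erythroid genes summed to 679 to 1556 FPKM in CK and 449 to 1046 FPKM in PB-020. They summed to 101 to 380 FPKM in anti-PD-1 and 127 to 184 FPKM in the combination. Against CK, 5 of 5 fell in the combination, 5 of 5 with anti-PD-1 alone and 0 of 5 with PB-020 alone. The 6 proliferation genes summed to 620.0 to 715.8 FPKM in CK, 700.4 to 833.9 FPKM in PB-020, 751.8 to 895.7 FPKM in anti-PD-1 and 831 to 899.5 FPKM in the combination. Against CK, 4 of 6 rose in the combination and 1 of 6 with anti-PD-1 alone. The 8 fibroblast markers summed to 1838 to 2481 FPKM in CK, 1733 to 1808 FPKM in PB-020, 859 to 1736 FPKM in anti-PD-1 and 933.3 to 1329 FPKM in the combination. Every treated group thus lay below CK without overlap. Of the 8, 3 fell in the combination (Col3a1, Dcn and Pdgfra) and 1 rose (Postn), and 3 fell with anti-PD-1 alone. The part of these shifts in the values of Psat1, Ddit3 and the pathway genes was not tested.

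The 10 genes did not vary as 1 block between tumors. Over the 45 pairs of genes the median Pearson r of log2 CPM was 0.20 across 12 tumors. The 3 synthesis enzymes stood together, with r of 0.82 for Asns and Psat1, 0.78 for Asns and Phgdh and 0.75 for Psat1 and Phgdh. When each group was centred on its mean, Asns and Psat1 kept an r of 0.85, while Asns and Phgdh had 0.28 and Psat1 and Phgdh 0.36. Trib3, Atf4, Chac1 and Sesn2 had r from 0.48 to 0.75 with each other. Ddit3 had an r of 0.77 with Trib3 and of 0.19 with Sesn2. Ddit4 had an r between -0.22 and 0.17 with each of the other 9 genes. These values are descriptions over tumors that share libraries and depth.

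**Figure D4:**
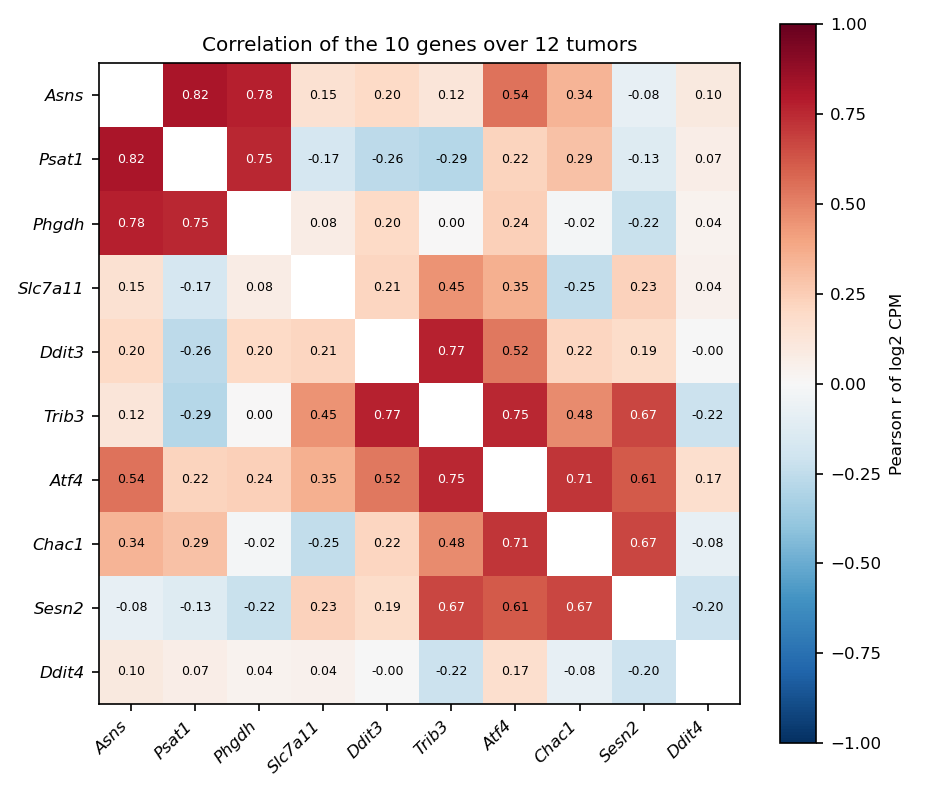
Pearson r of log2 CPM for each pair of the 10 genes over the 12 tumors, on a color scale from -1 (blue) to 1 (red), with the value printed in each cell. Asns, Psat1 and Phgdh form a red corner with r from 0.75 to 0.82, and Trib3, Atf4, Chac1 and Sesn2 form another, with r from 0.48 to 0.75.

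Atf4 itself was compared with the other 9 genes across the 12 tumors by a two-sided permutation test with 100000 resamples. Atf4 and Trib3 had a Pearson r of 0.75 (p = 0.00593, 0.038 after adjustment over the 9 relations) and a Spearman rho of 0.69 (p = 0.0175, adjusted 0.0525). Atf4 and Chac1 had a Pearson r of 0.71 (p = 0.00845, adjusted 0.038) and a Spearman rho of 0.78 (p = 0.00443, adjusted 0.0399). Without the 2 tumors farthest from the median of Atf4 (CK tumors 1 and 3) r was 0.70 for Trib3 and 0.63 for Chac1, and with each group centred on its mean it was 0.82 and 0.80. The other 7 relations did not pass, among them those with the synthesis enzymes (r = 0.54 for Asns, 0.22 for Psat1 and 0.24 for Phgdh). A group of 3 tumors is too small to give a correlation of its own.

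For each of the 10 genes, the other gene with the most similar pattern was taken as that with the highest Pearson r over the 12 tumors among the 13563 genes tested. These were Vapb for Atf4 (r = 0.88), Gadd45a for Ddit3 (0.93), Arhgef2 for Trib3 (0.91), Ubl3 for Sesn2 (0.88) and Pde7a for Ddit4 (0.92). They were Nars for Asns (0.94), Cul2 for Psat1 (0.94), Cnih4 for Phgdh (0.87), Zfp786 for Slc7a11 (0.89) and Ppp1r15b for Chac1 (0.88). Nars and Ppp1r15b are on the list of 122 pathway genes, Nars as the asparaginyl-tRNA synthetase and Ppp1r15b as a regulatory subunit of the eIF2 phosphatase. Each r is the highest of many and is given as a description.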

How the data were processed

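RNA was measured in 12 MC38 tumors. The authors aligned reads of 150 base pairs with Bowtie2 and quantified genes with RSEM. The submitters' processing notes name HISAT, Bowtie2 and GRCm38.p6, and versions were not given in the sources used here. The deposited values were RSEM expected counts, not normalized, and FPKM and TPM computed by the authors from them (TPM was not used). Strand settings were not given. Counts were rounded (9.03% of the gene-by-tumor values were not exactly whole) and tested with edgeR 4.0.16 in R 4.3.3 (filterByExpr, minimum count 10; TMM; robust quasi-likelihood fit of 4 group means to 12 libraries), two-sided, with Benjamini-Hochberg adjustment over 13563 genes and a threshold of 0.05. DESeq2 1.42.0, limma 3.58.1 on log2(FPKM + 1), other filters and scalings, and fits without single libraries were alternatives. Scripts were tested on simulated counts, with changes set in the combination against CK. The fit recovered 2 of 50 genes changed 1.2-fold, 31 of 50 changed 1.5-fold, 36 of 50 changed 2-fold and 46 of 50 changed 3-fold. A gene that did not pass can therefore still have changed by a small amount. Log2 CPM used a prior count of 2.

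The 10 genes, the list of 122 pathway genes and the markers were chosen with earlier results of these data known. Pathway genes named were up to 2 per role and direction with the smallest p in the combination against CK, and up to 2 per direction over the list in each other comparison, among those past the threshold. Cth and Aldh1l2 in PB-020 against CK, and genes that complete short lists of calls, were named after their values were seen. Of the 122, 121 were in the table and 93 matched a RefSeq promoter window by gene ID.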

Additional observations from a re-analysis of the deposited data

How the results depend on the processing

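Under the alternatives run, no log2 change of the 10 genes that passed in either fit changed direction. For the pathway genes and for all genes, only the counts of calls were compared. Of the 10 genes, at an adjusted p of 0.05, DESeq2 gave 1 in anti-PD-1 against CK, 2 in the combination against CK (Psat1 and Phgdh), 1 in the combination against PB-020 and 1 in the PB-020 main effect, against 0, 1, 0 and 0 with edgeR. Removing CK tumor 3 and anti-PD-1 tumor 1, chosen after seeing the data, gave 2 in the combination against CK (Psat1 and Ddit3), 2 against PB-020 (Ddit3 and Slc7a11) and 1 in the anti-PD-1 main effect (Ddit3) in place of 2. Fitting only the groups compared gave 3 in the combination against PB-020. No filter gave 0 in the anti-PD-1 main effect. A per-gene test on FPKM with a 1.5-fold limit gave 0 in the combination against CK.

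Of the pathway genes, PB-020 against CK gave 0 with edgeR, 2 with DESeq2, 1 without those 2 tumors and 1 with the per-gene test. Anti-PD-1 against CK gave 12, and 21 with DESeq2, 0 with only the groups compared, 6 without the 2 tumors and 3 with the per-gene test. The combination against CK gave 26, and 7 with the per-gene test. The combination against PB-020 gave 6, and 14 with DESeq2, 2 and 3 with limma on log2(FPKM + 1) and log2(FPKM + 0.1), 12 with only the groups compared, 15 without the 2 tumors and 2 with the per-gene test. The PB-020 main effect gave 0, and 3 with DESeq2 and 1 without the 2 tumors. The cause was not tested.

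Leaving out 1 tumor gave 0 to 1 of the 10 genes in anti-PD-1 against CK (1 without CK tumor 1), 0 to 1 in the combination against CK, 0 to 1 against PB-020 (1 without CK tumor 2 or anti-PD-1 tumor 1 or 2) and 0 to 2 in the anti-PD-1 main effect. For the pathway genes it gave 0 to 2 in PB-020 against CK (2 without anti-PD-1 tumor 1), 3 to 18 in anti-PD-1 against CK (3 without CK tumor 2, 5 and 6 without anti-PD-1 tumors 3 and 1), 13 to 32 in the combination against CK (13 without CK tumor 2, 14 and 15 without combination tumors 1 and 2), 0 to 14 against PB-020 (14 without anti-PD-1 tumor 1, 3 without anti-PD-1 tumor 3, 0 without PB-020 tumor 1 or 3 or any combination tumor) and 0 to 1 in the PB-020 main effect (1 without anti-PD-1 tumor 1).

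Over all genes, anti-PD-1 against CK gave 1120 with edgeR, 3 with only the groups compared and 646 with the per-gene test. The combination against CK gave 2434, and 1236 with the per-gene test. The combination against PB-020 gave 455, and 1109 with DESeq2. PB-020 against CK gave 0, and 6 with DESeq2 and 170 with the per-gene test. Leaving out 1 tumor gave 137 (without CK tumor 2) to 1905 (without anti-PD-1 tumor 2) in anti-PD-1 against CK, with 238, 625 and 637 without anti-PD-1 tumor 3, anti-PD-1 tumor 1 and CK tumor 3. It gave 864 (without CK tumor 2) to 3344 in the combination against CK, with 1085, 1160 and 1577 without combination tumors 1 and 2 and CK tumor 3. In the combination against PB-020 it gave 0 (without combination tumor 1) to 1269 (without anti-PD-1 tumor 1), with 1 and 11 without PB-020 tumors 1 and 3, 2 and 105 without combination tumors 2 and 3, 284 without CK tumor 1 and 738 without anti-PD-1 tumor 2. The anti-PD-1 main effect gave 2086 (without PB-020 tumor 1) to 3690, and 2156 without CK tumor 2, in place of 3279.

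With the replicate block, the anti-PD-1 main effect gave 1 of the 10 genes (Ddit3, adjusted p = 0.0449; Psat1 0.0588) in place of 2, and no other count of the 10 changed. No pairing of the tumors by the numbers of their labels was visible, though deviations from means of 3 tumors cannot exclude one. Of 18 pairs of same-numbered tumors, 2 had deviations from group means correlated above 0.1, and 3 of 12 tumors correlated best with their own number. With Spearman correlation, 1 of the 9 relations of Atf4 passed in place of 2. The stricter motif TGATGCAA stood in the windows of 2 of the 10 genes (Slc7a11 and Chac1) in place of 4, and in 1.03% of all genes with a window.

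The main limits are 3 tumors per group and RNA alone as the readout of a factor regulated as protein.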

Other observations

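Other genes of the stress response and of serine synthesis were also read by group. Atf3, a stress-induced leucine zipper factor, had 8.0 to 11.2 FPKM in CK, 10.3 to 12.3 FPKM in PB-020, 11 to 15.4 FPKM in anti-PD-1 and 8.8 to 10.5 FPKM in the combination. Its interaction estimate was -0.73 ± 0.20 on the log2 scale (SE, unadjusted p = 0.00251, adjusted p = 1, edgeR). Ppp1r15a, the stress-induced subunit of the eIF2 phosphatase, had 32.1, 23.1 and 28.6 FPKM in PB-020 and 18.2, 17.95 and 19.6 FPKM in the combination, and fell by 0.59 between them (SE 0.15, adjusted p = 0.0499, edgeR). Psph, which encodes the enzyme that completes serine synthesis after Phgdh and Psat1, had 23.2, 20.6 and 21.6 FPKM in CK and 27.7, 27.1 and 28.6 FPKM in PB-020, without overlap, with a log2 change of 0.37 ± 0.08 (unadjusted p = 0.000292, adjusted p = 0.567). These 3 genes were named after their values were seen.

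Of the 93 pathway genes with a promoter window, 16.1% held TGATGNAA, beside 4.51% of all genes with a window. The stricter TGATGCAA stood in 14% of them, beside 1.03% of all. The list was chosen by role and holds known ATF4 targets beside genes that are not, and nothing is drawn from these shares.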
